A study of Mus musculus with 8 samples.

Results

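The redox defence of the mouse heart was followed through 44 genes of the antioxidant, thioredoxin and glutathione systems, taken as the rows of the count table whose Ensembl identifiers carry the listed symbols in GENCODE M21. All 44 were found among the 45706 identifiers of the table, and all 44 were among the 15289 genes that passed the filter on low counts. Transcripts were counted by RNA sequencing in 8 libraries of heart RNA from male mice at 8 weeks of age. The labels do not say whether each library is a separate animal, so the tests measure differences against the spread between libraries, which may be technical, and a library is called a heart below for short. The knockout group (cKO, n = 4) was Elmsan1 fl/fl;aMHC-Cre+/-, with Cre driven by the promoter of α-myosin heavy chain, which is active in cardiomyocytes. The control groups were Elmsan1 fl/fl without Cre (floxed, n = 2) and aMHC-Cre+/- without floxed alleles (Cre, n = 2). Elmsan1 encodes a scaffold subunit of the MiDAC histone deacetylase complex, and the comparison asks which transcripts differ in the heart after its loss from cardiomyocytes. RNA came from heart tissue, so the cells that do not express this Cre keep the gene, and fewer cells of a type and less RNA per cell cannot be told apart. The strain of the mice is not given in the labels, nor whether hearts were handled on separate days.

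Hearts make superoxide and hydrogen peroxide as by-products of respiration. Superoxide dismutases turn superoxide into hydrogen peroxide, and catalase, glutathione peroxidases and peroxiredoxins remove the peroxide. Peroxiredoxins are recharged by thioredoxin and its reductases, and glutathione peroxidases by glutathione, which glutathione reductase restores with electrons from NADPH. Many of these genes are switched on by the transcription factor NRF2 (Nfe2l2), which KEAP1 holds low by marking it for degradation.

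Levels are given as CPM, the usual unit of counts scaled to library size, with library sizes corrected by TMM (a trimmed mean of log ratios between libraries). Libraries held between 17509564 and 25833259 estimated counts, and the 44 genes between 17.226 (Gsta1) and 18811 (Gpx3) counts in a library. Elmsan1 fell from 26.8 ± 1.62 to 14.5 ± 1.68 CPM (SD, n = 4 controls and 4 cKO; edgeR log2 -0.89, SE 0.11, adjusted p = 8.94e-05), with each cKO heart below each control heart. The count covers the whole gene, and which part is floxed is not given in the labels.

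Redox genes moved in both directions. Against the mean of both control groups 19 of the 44 genes rose and 6 fell in cKO (edgeR's quasi-likelihood test, adjusted p under 0.05). That is 56.8% called, 43.2% higher and 13.6% lower, where 52.1% of all tested genes were called, 25.6% higher and 26.5% lower. Counts by family below are read beside the same shares of all tested genes. Scaled by library size alone, 26 were higher and 4 lower. The median log2 fold change of all tested genes was then 0.17, so the shares above, from TMM scaling, do not apply to that count. With TMM scaling the median of the 44 genes was 0.25, and that of all tested genes was 0.04. Every cKO library lay above every control library for 18 of the 44 genes and below for 8, beside 23.4% and 25.9% of tested genes. Those that rose encode glutathione peroxidases, cytosolic and extracellular superoxide dismutase, several peroxiredoxins and glutathione transferases, and Selenow among others. Those that fell were Sod2, Cat, Prdx3, Txnrd1, Txnip and Gsr. NRF2, KEAP1 and the enzymes that build glutathione were not called.

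Fold changes varied with transcript length across the genome: genes under 1 kb had a median log2 of 0.73 and genes of 5 kb and over -0.32. Of the 44 redox genes, 36 have a principal transcript shorter than the 2913 bp median of tested genes (median of the 44, 1603 bp). An offset for the length and GC content of the principal transcript was therefore fitted per library, an alternative chosen after seeing the data. With it, 12 of the 44 genes were higher and 7 lower, beside 21.9% and 22.8% of tested genes, and the median of the 44 was 0.09. With an offset for the longest transcript, 13 were higher and 6 lower, beside 22.6% and 23.3%. Of the 25 calls, 15 were also made with the principal transcript offset, 11 higher and 4 lower. With the longest transcript offset 17 were also made, Prdx5 and Cat among them. The principal transcript offset is called the length offset from here on, although it holds GC content too. The parts of length and of GC content in a shift were not told apart.

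**Figure D1:**
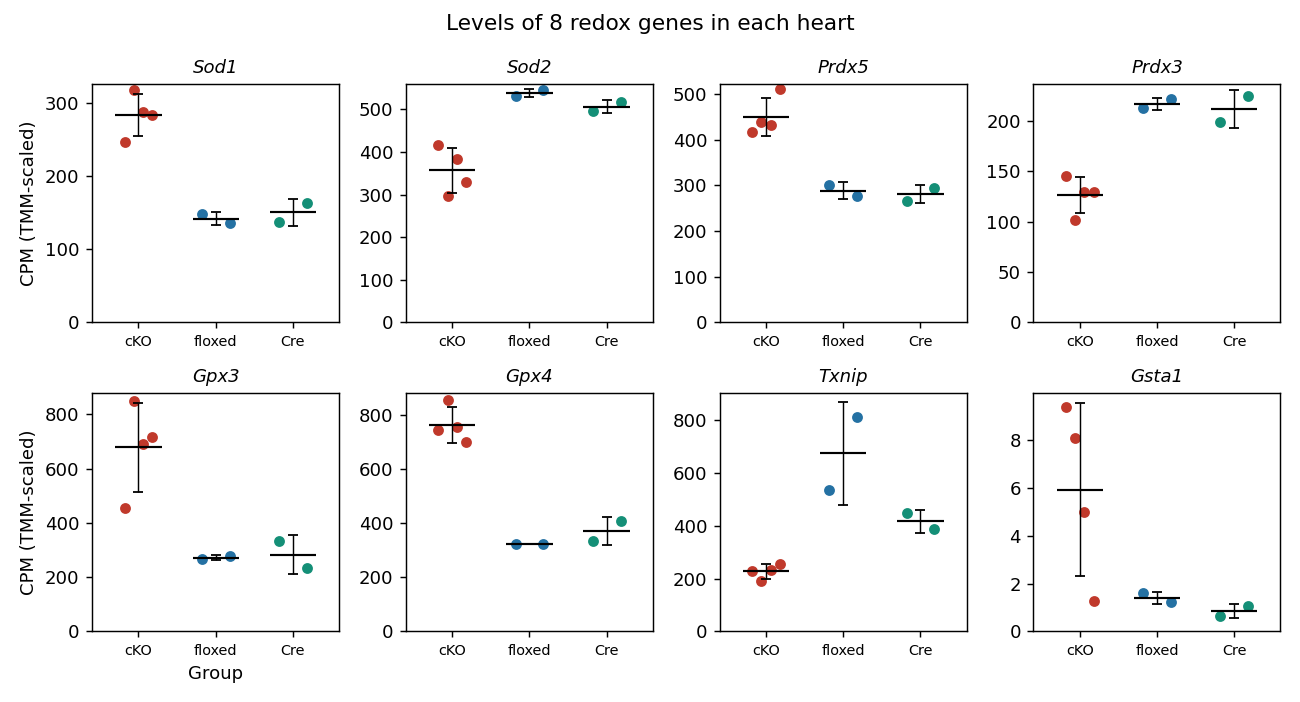
CPM of 8 redox genes in each heart (points) by group, with the group mean (horizontal line) and SD (bar); n = 4 cKO, 2 floxed and 2 Cre, and each panel has its own scale from 0. Sod1, Prdx5, Gpx3 and Gpx4 were higher in all 4 cKO hearts than in all 4 controls, and Sod2, Prdx3 and Txnip lower. Gsta1 in cKO replicate 4 (1.26 CPM) lay within the control range.

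Superoxide dismutases went in different directions. Sod1 (ENSMUSG00000022982, chr16:90220754-90226329, GRCm38), the copper-zinc enzyme found mainly in the cytosol, was at 247.2, 317.4, 287.7 and 284.0 CPM in the 4 cKO hearts, 148.8 and 135.4 CPM in floxed hearts and 137.6 and 164.0 CPM in Cre hearts. It rose 1.94-fold (log2 0.96, SE 0.10, adjusted p = 4.93e-05), and 1.26-fold with the length offset (log2 0.33, adjusted p = 0.0133). With the planned longest transcript offset the rise was larger (log2 1.16, edgeR adjusted p = 4.57e-05). Every cKO heart exceeded every control. Sod2, the manganese enzyme of the mitochondrial matrix, measured 415.9, 297.5, 383.8 and 330.2 CPM across cKO replicates, against 531.4 and 545.3 CPM (floxed) and 495.4 and 517.3 CPM (Cre). All 4 cKO hearts were below the controls, a 1.46-fold fall (log2 -0.55, SE 0.11, adjusted p = 0.00201). Its transcript is long (5861 bp), and with the length offset the fall was no longer called (log2 -0.13, adjusted p = 0.305). The ratio of Sod1 to Sod2 within a library, which does not depend on library scaling, was 0.594 to 1.07 in cKO and 0.248 to 0.317 in controls. It sets a transcript of 641 bp against one of 5861 bp, so the variation of fold changes with length enters it. This ratio and those below have no length offset, were chosen after their values were seen and carry no test.

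Sod3, the secreted extracellular enzyme, had 42.1, 44.2, 53.8 and 69.1 CPM after knockout, where floxed hearts had 30.5 and 28.2 CPM and Cre hearts 32.65 and 33.7 CPM. It was higher in every cKO heart, by 1.68-fold (log2 0.75, SE 0.15, adjusted p = 0.001695), and this stood with the length offset (log2 0.83). Cat, the peroxisomal catalase that splits hydrogen peroxide, was at 133.2, 94.9, 143.3 and 84.35 CPM in the 4 cKO hearts, 168.9 and 154.8 CPM in floxed hearts and 152.2 and 201.3 CPM in Cre hearts. The groups did not overlap, and Cat fell 1.48-fold (log2 -0.57, SE 0.18, adjusted p = 0.0206). That call ended with the length offset (log2 -0.46, adjusted p = 0.0563), with library size alone, and without cKO replicate 2 (adjusted p = 0.06255), floxed replicate 1 (0.0615) or Cre replicate 2 (0.06435). It remained with the planned longest transcript offset (log2 -0.52, edgeR adjusted p = 0.0362). The ratio of Gpx1, which removes the same substrate, to Cat in CPM was 0.662 to 1.56 in cKO and 0.278 to 0.347 in controls, a comparison between groups and not between the genes.

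Of 5 glutathione peroxidases 4 rose and none fell, and the same count held with the length offset. Gpx4 (ENSMUSG00000075706, chr10:80047166-80056439, GRCm38), the selenoenzyme that reduces lipid peroxides in membranes, measured 743.4, 855.8, 757.0 and 699.7 CPM across cKO replicates, against 324.1 and 323.8 CPM (floxed) and 333.5 and 409.2 CPM (Cre). It rose 2.203-fold (log2 1.14, SE 0.10, adjusted p = 2.35e-05), with every cKO value far above the highest control. Gpx1, the selenoenzyme of cytosol and mitochondria, had 88.2, 109.8, 113.2 and 131.5 CPM after knockout, where floxed hearts had 49.8 and 47.55 CPM and Cre hearts 52.8 and 56.02 CPM, a 2.15-fold rise (log2 1.11, SE 0.12, adjusted p = 4.21e-05). Gpx3, the secreted plasma form, was at 456.7, 848.1, 692.0 and 716.4 CPM in the 4 cKO hearts, 265.3 and 279.3 CPM in floxed hearts and 333.9 and 232.8 CPM in Cre hearts. Its lowest cKO value, in replicate 1, was still above each control, and Gpx3 rose 2.44-fold (log2 1.29, SE 0.19, adjusted p = 3.29e-04).

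Gpx7, a peroxidase of the endoplasmic reticulum that uses cysteine in place of selenocysteine, rose 2.44-fold from a low level, 5.37 ± 0.699 CPM in controls to 13.1 ± 4.32 CPM in cKO (SD, n = 4 each; edgeR adjusted p = 6.71e-04), and cKO replicate 4 was highest at 19.5 CPM. Gpx8, of the same compartment, overlapped between groups and was not called (log2 0.26, adjusted p = 0.0748). With the length offset the rises were smaller, log2 0.47 for Gpx4, 0.54 for Gpx1, 0.91 for Gpx3 and 0.85 for Gpx7. Per kilobase of principal transcript, Gpx4 had the highest level of the 44 genes in both conditions, 362.5 CPM per kb in controls and 796.6 in cKO. Sod1 (228.5) and Prdx5 (225.4) came next in controls, and Sod1 (443.2) and Gpx3 (425.5) in cKO. The lowest level per kilobase in controls was that of Gsta1, at 1.29 CPM per kb.

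Among 7 peroxiredoxin and sulfiredoxin genes 3 rose, 1 fell and 3 were not called. Prdx3 (ENSMUSG00000024997, chr19:60864051-60874556, GRCm38), a peroxiredoxin of the mitochondrial matrix, was at 145.8, 101.6, 129.4 and 129.7 CPM in the 4 cKO hearts, 213.3 and 221.6 CPM in floxed hearts and 199.1 and 225.4 CPM in Cre hearts. All cKO hearts were lower, and the fall of 1.696-fold (log2 -0.76, SE 0.11, adjusted p = 2.71e-04) was log2 -0.82 with the length offset. Prdx5, found in mitochondria, peroxisomes and cytosol, went the other way and measured 417.6, 439.5, 432.7 and 510.1 CPM across cKO replicates, against 301.3 and 276.0 CPM (floxed) and 266.6 and 294.0 CPM (Cre). Its rise of 1.58-fold (log2 0.66, SE 0.10, adjusted p = 2.28e-04) was not called with the length offset (log2 0.12, adjusted p = 0.231). With the planned longest transcript offset it was called (log2 0.28, edgeR adjusted p = 0.0151). Exons of Trmt112 lie over Prdx5 on the other strand, and Prdx5 counts had decimals in all 8 libraries, so they may include reads of another gene. The ratio of Prdx5 to Prdx3 was 2.86 to 4.32 in cKO and 1.25 to 1.41 in controls. Prdx4, the form of the secretory pathway, had 17.5, 21.4, 18.5 and 22.6 CPM after knockout, where floxed hearts had 11.65 and 9.87 CPM and Cre hearts 11.01 and 10.4 CPM. It rose 1.86-fold without overlap (log2 0.90, SE 0.12, adjusted p = 1.16e-04).

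Prdx2, a cytosolic form abundant in red blood cells, rose 1.35-fold, from 234.6 ± 9.72 to 317.5 ± 25.02 CPM (SD, n = 4 each; edgeR adjusted p = 0.001925), and stayed called with the length offset (log2 0.32). Its exons lie over exons of Junb and Rnaseh2a on the other strand, and the strand setting of the counting is not given, so reads of these genes cannot be told apart. Prdx1 (log2 0.24, adjusted p = 0.0556), Prdx6 (log2 0.05, adjusted p = 0.681) and Srxn1, which repairs overoxidised peroxiredoxins (log2 0.32, adjusted p = 0.0574), were not called. Prdx1 was called higher with the length offset (log2 0.35, adjusted p = 0.00727), without cKO replicate 2 (adjusted p = 0.0416) and without cKO replicate 4 (0.03435). Srxn1 was called higher without cKO replicate 4 (adjusted p = 0.0115) or Cre replicate 2 (0.0367).

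**Figure D2:**
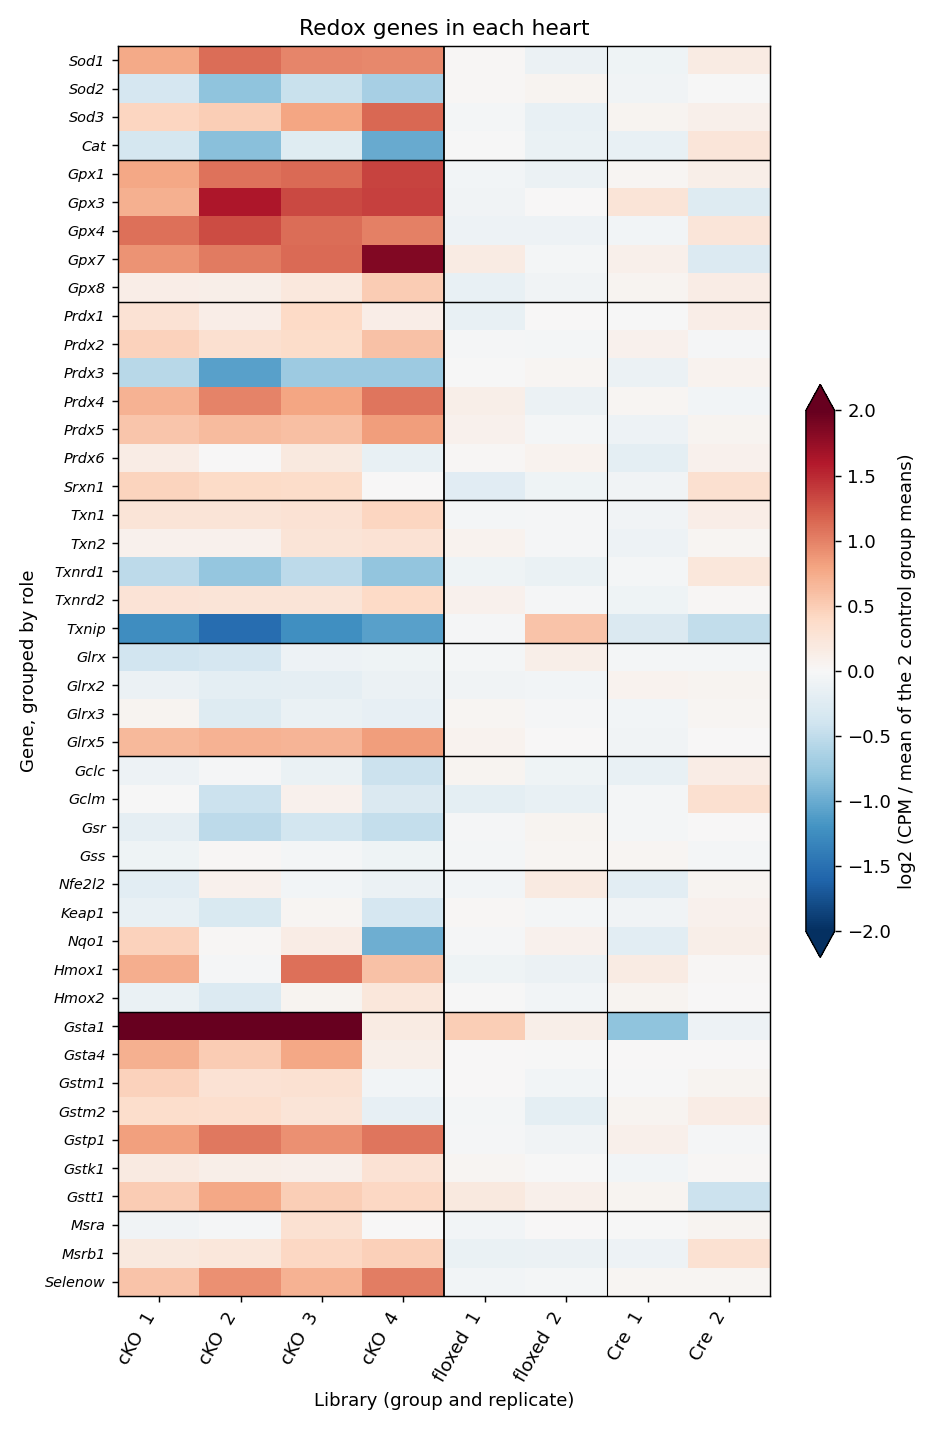
Colour shows log2 of the CPM of each gene in each library over the mean of the 2 control group means, from -2 (blue) to 2 (red), for the 44 genes in rows grouped by role and the 8 libraries in columns. The glutathione peroxidases other than Gpx8 are red and Txnip and Prdx3 blue in all 4 cKO columns, and cKO replicate 4 differs from the other cKO hearts in Nqo1 and Gsta1.

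Txnip (ENSMUSG00000038393, chr3:96557957-96561883, GRCm38) had the most negative fold change of the 44 genes. Its protein binds reduced thioredoxin and blocks it, and it also restrains glucose uptake. Txnip was at 230.2, 190.6, 232.4 and 256.2 CPM in the 4 cKO hearts, 534.9 and 812.3 CPM in floxed hearts and 447.8 and 386.3 CPM in Cre hearts. Floxed hearts were highest, one of them far above the rest, and cKO hearts were lowest with no overlap. The fall was 2.33-fold (log2 -1.22, SE 0.14, adjusted p = 6.88e-05), and log2 -1.07 with the length offset. Exons of Gm15441 lie over Txnip on the other strand, and its counts had decimals in all 8 libraries, so part of them are estimates that may include reads of another gene. The 250 bases before its RefSeq start (GRCm38.p6, chr3:96557707-96557956, plus strand) are shown because this promoter is known for a carbohydrate response element. Capitals mark, from the left, the forkhead site GTAAACA, which begins 121 bases before the start, and a form of the carbohydrate response element (CACGNG, then NNNNN, then CNCGNG), which begins 85 bases before it.
Txnip: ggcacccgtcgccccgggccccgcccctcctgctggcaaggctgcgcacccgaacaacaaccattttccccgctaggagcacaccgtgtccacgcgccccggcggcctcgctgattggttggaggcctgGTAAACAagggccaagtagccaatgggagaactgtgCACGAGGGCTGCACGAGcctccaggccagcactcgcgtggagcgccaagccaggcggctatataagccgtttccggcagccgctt
On either strand of the same window, the carbohydrate response element occurs in 0.326% of 27025 genes and in 1 of the 37 redox genes with a RefSeq window. The forkhead site occurs in 3.54% of genes and in 2 redox genes, Txnip and Glrx2. The matches do not overlap each other, and a match describes letters, not binding.

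In the thioredoxin system proper, Txnrd1, the cytosolic selenoprotein reductase, fell. It measured 36.4, 30.8, 36.5 and 30.5 CPM across cKO replicates, against 49.4 and 47.8 CPM (floxed) and 51.2 and 61.7 CPM (Cre). Every cKO heart was lower, a fall of 1.56-fold (log2 -0.64, SE 0.10, adjusted p = 3.36e-04), with log2 -0.47 under the length offset. Its substrate Txn1, cytosolic thioredoxin, had 54.7, 55.2, 56.4 and 61.8 CPM after knockout, where floxed hearts had 44.7 and 45.3 CPM and Cre hearts 43.6 and 50.2 CPM. The groups were close but apart, and Txn1 rose 1.24-fold (log2 0.31, SE 0.08, adjusted p = 0.00912). The ratio of Txn1 to Txnrd1 was 1.5 to 2.02 in cKO and 0.814 to 0.949 in controls.

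In mitochondria, the reductase Txnrd2 rose 1.23-fold, from 27.5 ± 1.285 to 33.8 ± 1.69 CPM (SD, n = 4 each; edgeR adjusted p = 0.0108), and its thioredoxin, Txn2, was not called (log2 0.19, adjusted p = 0.105). With the length offset neither Txn1 (log2 0.12, adjusted p = 0.199) nor Txnrd2 (log2 0.20, adjusted p = 0.0591) was called, and Txnrd2 was not called without floxed replicate 2 either (adjusted p = 0.0601).

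Glutaredoxins use glutathione to reduce protein disulfides or to carry iron-sulfur clusters, and 1 of the 4 rose. Glrx5, a mitochondrial protein of iron-sulfur cluster assembly, was at 107.1, 111.7, 110.6 and 122.0 CPM in the 4 cKO hearts, 71.8 and 68.9 CPM in floxed hearts and 65.3 and 68.7 CPM in Cre hearts. This rise of 1.64-fold (log2 0.72, SE 0.08, adjusted p = 5.77e-05), without overlap, was log2 0.72 with the length offset. Glrx (log2 -0.22), Glrx2 (-0.15) and Glrx3 (-0.12) were not called, although every cKO value of Glrx and Glrx2 lay below every control value. Glrx was called lower with the length offset (log2 -0.31, adjusted p = 0.0191), whereas Glrx2 turned to log2 0.09.

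None of the 3 genes of glutathione synthesis was called. Gclc and Gclm, the catalytic and modifier subunits of glutamate-cysteine ligase, held 11.7 ± 1.35 and 19.96 ± 3.27 CPM in cKO and 13.15 ± 1.22 and 22.1 ± 3.83 CPM in controls (SD, n = 4 each), with log2 -0.16 (SE 0.12) and -0.14 (SE 0.13). Both turned in sign with the length offset, to 0.06 and 0.27, and were not called. Gss, glutathione synthetase, was at log2 -0.05 (SE 0.10) and was called lower with the length offset (log2 -0.32, adjusted p = 0.02395). Gsr, the reductase that restores glutathione, had 16.5, 12.9, 14.5 and 13.4 CPM after knockout, where floxed hearts had 18.3 and 19.3 CPM and Cre hearts 18.03 and 18.7 CPM. It fell 1.3-fold (log2 -0.38, SE 0.10, adjusted p = 0.0104), each cKO heart being below each control, a call that ended with library size alone (adjusted p = 0.118).

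Neither NRF2 nor its adaptor was called. Nfe2l2 was at 47.3, 58.3, 53.2 and 50.6 CPM in the 4 cKO hearts, 52.99 and 62.2 CPM in floxed hearts and 47.65 and 57.4 CPM in Cre hearts (log2 -0.07, SE 0.10, edgeR adjusted p = 0.5801). Keap1 measured 54.2, 48.96, 61.7 and 47.7 CPM across cKO replicates, against 61.6 and 58.7 CPM (floxed) and 57.3 and 63.7 CPM (Cre) (log2 -0.18, SE 0.10, edgeR adjusted p = 0.142). The ranges of both genes overlapped between groups, and upper-quartile scaling, library size alone and the length offset turned the sign of Nfe2l2. The ratio of Nfe2l2 to Keap1 overlapped too, at 0.863 to 1.19 in cKO and 0.832 to 1.06 in controls. Keap1 was called lower with the length offset (log2 -0.34, adjusted p = 0.0224) and without cKO replicate 3 (adjusted p = 0.0489).

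Of the 13 known NRF2 targets among the 44 genes, 5 rose, 2 fell and 6 were not called, beside 25.6% higher and 26.5% lower of tested genes. With the length offset 3 were higher and 2 lower, beside 21.9% and 22.8%. Counts this near the shares of all genes are no result about the targets. Nqo1, the quinone reductase often used as a readout of NRF2 activity, had 45.8, 34.04, 36.9 and 16.95 CPM after knockout, where floxed hearts had 32.9 and 35.5 CPM and Cre hearts 28.9 and 36.4 CPM (log2 -0.0035, SE 0.28). Its cKO hearts lay on both sides of the controls. Hmox1, inducible haem oxygenase, was at 8.21, 4.89, 10.7 and 7.46 CPM in the 4 cKO hearts, 4.67 and 4.57 CPM in floxed hearts and 5.54 and 5.06 CPM in Cre hearts. It rose 1.58-fold (log2 0.66, SE 0.21, adjusted p = 0.0206), but cKO replicate 2 lay among the controls. That call ended with the length offset (adjusted p = 0.129), and without cKO replicate 3 (0.0653), floxed replicate 1 (0.0597), floxed replicate 2 (0.06603) or Cre replicate 2 (0.0704). Hmox2, the constitutive form, was not called (log2 -0.02, SE 0.11).

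NRF2 binds antioxidant response elements. The core TGACNNNGC, searched on both strands of the 250 bases before the start, occurs in 11.5% of 27025 genes and in 5 of the 37 redox genes with a window. Those promoters are shown because they carry these letters and their genes went different ways (RefSeq, GRCm38.p6, each 5′ to 3′ along its gene). They lie at chr16:90220512-90220761, plus strand (Sod1), chr4:116685349-116685598, plus strand (Prdx1), chr10:82858956-82859205, plus strand (Txnrd1, 1 of its 3 starts), chr3:122245307-122245556, plus strand (Gclm) and chr2:75704664-75704913, minus strand (Nfe2l2). Capitals mark the match, which lies on the strand shown in Nfe2l2 and on the opposite strand in the others, where the letters shown are its reverse complement.
Sod1: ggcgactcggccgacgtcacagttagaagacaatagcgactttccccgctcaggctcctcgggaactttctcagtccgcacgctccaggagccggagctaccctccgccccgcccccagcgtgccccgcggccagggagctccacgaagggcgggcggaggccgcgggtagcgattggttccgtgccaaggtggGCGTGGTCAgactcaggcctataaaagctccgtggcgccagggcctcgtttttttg
Prdx1: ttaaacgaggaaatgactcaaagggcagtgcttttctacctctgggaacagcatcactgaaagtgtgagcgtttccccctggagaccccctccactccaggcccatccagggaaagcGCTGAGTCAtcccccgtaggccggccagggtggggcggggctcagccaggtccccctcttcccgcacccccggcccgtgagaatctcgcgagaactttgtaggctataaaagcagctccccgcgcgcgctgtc
Txnrd1: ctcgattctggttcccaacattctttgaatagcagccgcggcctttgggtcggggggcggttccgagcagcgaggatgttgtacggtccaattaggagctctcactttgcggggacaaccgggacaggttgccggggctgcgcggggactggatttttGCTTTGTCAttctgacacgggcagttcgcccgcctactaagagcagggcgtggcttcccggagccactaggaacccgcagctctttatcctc
Gclm: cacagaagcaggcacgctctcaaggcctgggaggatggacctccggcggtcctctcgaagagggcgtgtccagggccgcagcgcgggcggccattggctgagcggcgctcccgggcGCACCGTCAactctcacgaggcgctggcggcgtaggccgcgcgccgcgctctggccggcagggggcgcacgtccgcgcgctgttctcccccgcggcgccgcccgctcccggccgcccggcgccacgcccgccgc
Nfe2l2: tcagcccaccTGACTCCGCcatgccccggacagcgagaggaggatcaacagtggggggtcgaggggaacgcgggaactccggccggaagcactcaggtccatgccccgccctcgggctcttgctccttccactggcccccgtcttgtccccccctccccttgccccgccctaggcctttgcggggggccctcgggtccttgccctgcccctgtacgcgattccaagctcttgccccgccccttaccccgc
Of these genes, Sod1 rose, Txnrd1 fell, and Prdx1, Gclm and Nfe2l2 were not called. The Prdx1 match overlaps an AP-1 site (TGACTCA), whose letters occur in the same window of 5.16% of genes and of 4 redox genes. For the other 32 redox genes with a window the letters of the core are not in it, from which nothing follows about NRF2, and 7 redox genes had no window to search.

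Glutathione S-transferases, which join glutathione to reactive products, rose in 4 of 7 cases and fell in none, beside 25.6% and 26.5% of tested genes. With the length offset 2 of the 7 were higher, beside 21.9%. Their median principal transcript was 977 bp, and 70.9% of protein-coding genes under 1 kb rose. Gstp1, the pi-class enzyme, measured 167.6, 197.5, 179.0 and 199.0 CPM across cKO replicates, against 93.6 and 90.7 CPM (floxed) and 101.3 and 93.8 CPM (Cre). It rose 1.96-fold (log2 0.97, SE 0.09, adjusted p = 2.56e-05), and 1.26-fold with the length offset (log2 0.34, adjusted p = 0.00372). Its counts had decimals in all 8 libraries, and mice carry a near-identical copy of this gene, so the value is uncertain. Gstt1, the theta-class enzyme, had 19.6, 23.6, 19.4 and 18.4 CPM after knockout, where floxed hearts had 15.9 and 14.8 CPM and Cre hearts 14.4 and 10.2 CPM. It had no overlap and rose 1.47-fold (log2 0.55, SE 0.13, adjusted p = 0.00404), which was not called with the length offset (log2 0.11, adjusted p = 0.516).

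Gsta1, an alpha-class enzyme, had the largest fold of the 44 genes and differed widely among cKO hearts. It was at 9.36, 8.05, 4.97 and 1.26 CPM in the 4 cKO hearts, 1.585 and 1.23 CPM in floxed hearts and 0.645 and 1.05 CPM in Cre hearts. In 3 cKO hearts it was high, and cKO replicate 4 was at control level. Gsta1 counts had decimals in 6 libraries, so part of them are estimates that may include reads of another gene. The rise was 5.38-fold (log2 2.43, SE 0.60, adjusted p = 0.0106), and it was not called without Cre replicate 1 (adjusted p = 0.0511) or with no filter on low counts (0.0527). Gsta4, which detoxifies lipid aldehydes, measured 75.3, 64.9, 78.65 and 49.7 CPM across cKO replicates, against 46 and 45.4 CPM (floxed) and 45.9 and 46 CPM (Cre). Again cKO replicate 4 was lowest of its group, above the controls by a narrow margin, and Gsta4 rose 1.46-fold (log2 0.55, SE 0.13, adjusted p = 0.00474), a call that ended with the length offset (log2 0.29, adjusted p = 0.123).

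The other transferases were not called. These were the mu-class genes Gstm1 (log2 0.26, SE 0.11) and Gstm2 (log2 0.21, SE 0.12) and Gstk1 of mitochondria and peroxisomes (log2 0.17, SE 0.08), and all 3 turned in sign with the length offset. Without cKO replicate 4, which held the lowest cKO value of both, Gstm1 (adjusted p = 0.00606) and Gstm2 (0.00821) were called higher.

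Selenow, a small selenoprotein abundant in muscle, had 136.4, 172.8, 147.7 and 185.5 CPM after knockout, where floxed hearts had 88.6 and 89.5 CPM and Cre hearts 93.9 and 94.5 CPM. All 4 cKO hearts were higher. The rise of 1.75-fold (log2 0.81, SE 0.11, adjusted p = 1.28e-04) was not called with the length offset (log2 0.06, adjusted p = 0.543), and its transcript is short (736 bp). Msrb1, a methionine sulfoxide reductase that is also a selenoprotein, was at 83.75, 85.4, 97.2 and 101.9 CPM in the 4 cKO hearts, 66.7 and 67.8 CPM in floxed hearts and 68.4 and 90.2 CPM in Cre hearts. It rose 1.26-fold (log2 0.34, SE 0.11, adjusted p = 0.0224), but Cre replicate 2 lay inside the cKO range. The Msrb1 call ended without cKO replicate 3 (adjusted p = 0.0552), floxed replicate 1 (0.0793), floxed replicate 2 (0.06325) or Cre replicate 1 (0.09675), and with the length offset its sign turned (log2 -0.09, adjusted p = 0.458). Msra, which reduces the other stereoisomer of the sulfoxide, was not called (log2 0.06, SE 0.10).

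Across families, the 7 genes with selenocysteine were all called, 6 higher and Txnrd1 lower, beside 52.1% of tested genes, 25.6% higher and 26.5% lower. Their median principal transcript was 1211 bp, and 41.6% of protein-coding genes of 1 to 2 kb rose. Against floxed hearts, and also against Cre hearts, 5 were called higher, 1 lower and 1 was not called. With the length offset 3 were higher (Gpx1, Gpx3 and Gpx4) and 1 lower, beside 21.9% and 22.8% of tested genes. Of 7 genes listed for the mitochondrial matrix 2 rose (Glrx5 and Txnrd2), 2 fell (Sod2 and Prdx3) and 3 were not called. With the length offset that left Glrx5 higher and Prdx3 lower. The list leaves out Gpx1 and Prdx5, found in mitochondria among other places, which also rose (Prdx5 not with the length offset).

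**Figure D3:**
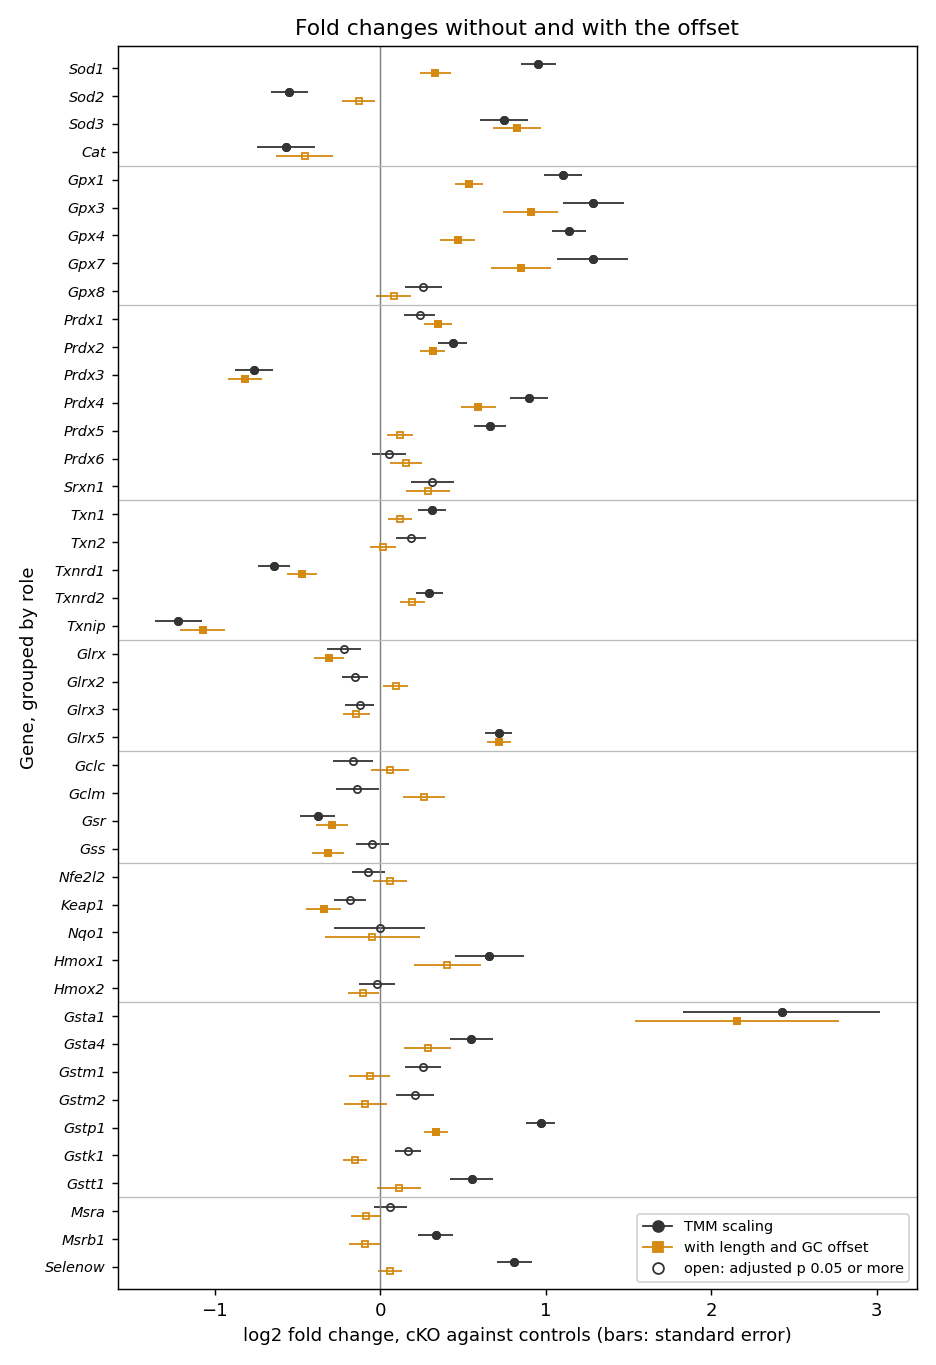
log2 fold change of cKO against controls for the 44 genes, grouped by role, with TMM scaling (circles) and with the length offset (squares); bars are standard errors, and filled symbols passed an adjusted p of 0.05. Selenow went from 0.81 to 0.06 and Sod2 from -0.55 to -0.13 with the offset, while Prdx3 was at -0.76 and -0.82 and Glrx5 at 0.72 and 0.72.

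Within classes of transcript length, redox genes can be set beside all tested protein-coding genes. Of the 8 redox genes under 1 kb, 7 rose, where 70.9% of 780 genes of that length rose. In the class of 1 to 2 kb, 9 of 19 rose and 1 fell, beside 41.6% and 9.91% of 2847 genes. In the class of 2 to 3 kb, 2 of 10 rose and 3 fell, beside 25.7% and 24.8% of 3122 genes. Of 5 redox genes of 3 to 5 kb 1 rose (Sod3) and 1 fell (Txnrd1), beside 17.7% and 35% of 4279 genes. Of 2 longer ones none rose and 1 fell (Sod2), beside 9.17% and 47.7% of 2716 genes. These counts are small, and shares near those of other genes of the same length are no result about the redox genes.

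**Figure D4:**
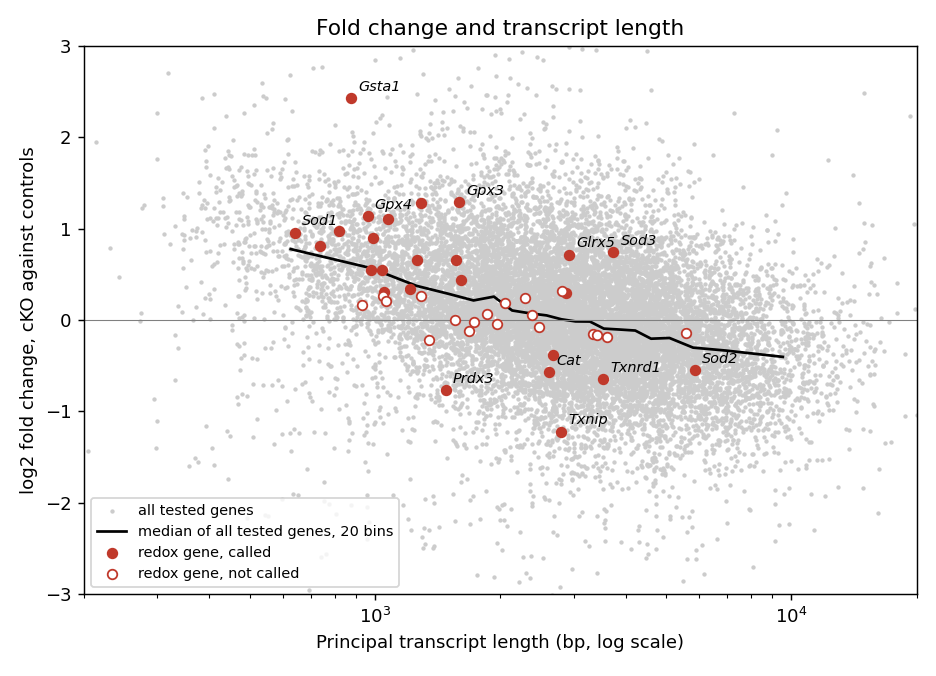
log2 fold change of cKO against controls (vertical axis) by length of the principal transcript (horizontal, log scale) for all tested genes (grey), their median in 20 length bins (line) and the 44 redox genes (red, filled where called); a few grey points lie beyond the axes. The line falls from short to long transcripts, with Sod3 (0.75) and Glrx5 (0.72) above it and Prdx3 (-0.76) and Txnip (-1.22) below it.

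Each control group was also taken singly, and both comparisons share the 4 cKO hearts. Against floxed hearts 17 of the 44 genes rose and 5 fell, where 42.9% of tested genes were called, 19.8% higher and 23.1% lower. Against Cre hearts 17 rose and 6 fell, where 42.4% of tested genes were called, 19.6% higher and 22.8% lower. The counts rest on few controls: without floxed replicate 1 or 2 the genes higher than floxed numbered 11 and 9, and without Cre replicate 1 or 2 those higher than Cre numbered 11 and 10. Without Cre replicate 2 those lower than Cre numbered 3. Gpx3 was at log2 1.32 against floxed and 1.26 against Cre, Sod1 at 1.00 and 0.91, and Prdx3 at -0.78 and -0.74. Cat, Txnrd2, Gsta1 and Gstt1 were called against Cre and not against floxed, and Srxn1, Hmox1 and Msrb1 against floxed and not against Cre.

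The difference between these comparisons is the test of Cre against floxed hearts, which no redox gene passed in edgeR or DESeq2. In edgeR 0.0981% of tested genes did, 0.00654% higher and 0.0916% lower in Cre. At an unadjusted p under 0.05 there was 1 of the 44, beside 3.44% of tested genes. That gene was Txnip, at log2 -1.57 in cKO against floxed and -0.88 against Cre (Cre against floxed log2 -0.69, SE 0.20, edgeR adjusted p = 0.7999).

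Genes around these systems also went in both directions, and their counts are read against the 25.6% higher and 26.5% lower of all tested genes (21.9% and 22.8% with the length offset). Of 22 genes that supply NADPH, 7 rose and 10 fell (5 higher and 9 lower with the length offset). Nnt, the mitochondrial transhydrogenase that makes NADPH, measured 193.5, 210.1, 239.8 and 144.4 CPM across cKO replicates, against 677.0 and 628.4 CPM (floxed) and 585.2 and 783.7 CPM (Cre). Every cKO heart was far below every control, a 3.39-fold fall (log2 -1.76, SE 0.16, adjusted p = 2.56e-05, and log2 -1.58 with the length offset). The labels do not give the strain, so whether the groups share the same background at Nnt was not tested. The mitochondrial NAD kinase Nadk2 fell 2.302-fold (log2 -0.95 with the length offset), and Pgls of the pentose phosphate pathway rose 2.45-fold (1.45-fold with the length offset).

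Of 21 tested genes for other selenoproteins and selenocysteine insertion 7 rose and 5 fell (7 higher and 4 lower with the length offset). Selenom was 2.599-fold and Selenoh 1.93-fold higher and Selenot, of the endoplasmic reticulum, 1.68-fold lower, and with the length offset these were 1.37, 1.404 and 1.45. Among 28 tested genes of other glutathione transferases and glutathione handling 11 rose and 3 fell (7 higher and 4 lower with the length offset). Gstt2 rose 2.455-fold and the microsomal Mgst3 1.42-fold, and Chac2, which breaks glutathione down, fell 1.78-fold (2.49, 1.175 and 2.04 with the length offset). Other thioredoxin-fold and sulfoxide genes counted 8 higher and 6 lower of 25, but 7 higher and 9 lower with the length offset. The methionine sulfoxide reductase Msrb3 was 2.31-fold and Oxr1 1.76-fold lower and the biliverdin reductase Blvrb 2.28-fold higher (1.92, 2.19 and 1.53 with the length offset).

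Partners of NRF2 and further targets counted 9 higher and 8 lower of 27 (11 higher and 7 lower with the length offset). Cul3, the ubiquitin ligase scaffold that KEAP1 recruits, went from 113.7 ± 3.08 to 61.8 ± 4.96 CPM (SD, n = 4 each), a 1.84-fold fall (edgeR adjusted p = 3.17e-05; log2 -0.57 with the length offset). Gsk3b, a kinase that marks NRF2 for degradation, fell 2.301-fold, and the ferritin light chain Ftl1 rose 2.48-fold (1.61 and 1.59 with the length offset). Enzymes that make superoxide or peroxide counted 9 higher and 4 lower of 21 (11 higher and 3 lower with the length offset). Cyba, a membrane subunit of NADPH oxidases, rose 2.535-fold, and 1.43-fold with the length offset. The monoamine oxidase Maob fell 2.19-fold and Ddo, a peroxisomal amino acid oxidase, 2.715-fold (1.998 and 2.38 with the length offset).

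Markers of cell types were counted in the same comparison. Their counts are read beside the 25.6% higher and 26.5% lower of all tested genes (21.9% and 22.8% with the length offset). Endothelial markers counted 10 higher and 1 lower of 14, with a summed level of 2419 to 3294 CPM in cKO and 1606 to 1951 CPM in controls. Macrophage markers counted 7 higher of 13 (383.0 to 494.9 CPM against 253.1 to 316.4 CPM), and fibroblast markers 5 higher of 13 (2563 to 3399 CPM against 1810 to 2457 CPM). Cardiomyocyte markers counted 5 higher and 4 lower of 14, with 67190 to 76120 CPM in cKO and 75850 to 82200 CPM in controls. With the length offset the count of cardiomyocyte markers turned to 2 higher and 7 lower, with a median log2 of -0.27 in place of 0.06. Endothelial markers were then 11 higher, macrophage markers 10 and fibroblast markers 7, with none lower. Sums of erythroid markers overlapped (527.1 to 1356 CPM against 519.6 to 812.9 CPM), with 1 lower of 6 tested, while Rhag was at 0 in every library and Epb42 at 1 count at most. Sums of smooth muscle and pericyte markers overlapped too (1956 to 2372 CPM against 1993 to 2252 CPM), with 1 lower of 10. Neutrophil markers were scarce (2.26 to 14.6 CPM against 1.499 to 4.86 CPM), with 1 higher of 5 tested. The part of these cell types in the redox gene differences was not tested.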

How the data were processed

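RNA was measured in 8 libraries in 3 genotype groups. The table that the authors deposited holds estimated counts per gene, not scaled for depth, and decimals in part of the values showed estimated, or expected, counts, so they were rounded before testing, where whole counts had been planned for. Per the submitters' processing notes STAR 2.5.1b, DESeq2 and the builds mm10 and GRCm38 were used. The counting program, annotation and strand setting are not given in the labels.

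After filterByExpr (15289 genes) and TMM scaling, all 8 libraries were fitted with a mean per group (5 residual degrees of freedom; edgeR 4.0.16, robust, R 4.3.3). Knockouts were tested against the equally weighted mean of both control groups and against each, by quasi-likelihood with Benjamini-Hochberg adjustment over all tested genes at 0.05. SE was derived from the test statistic.  The offset was a smooth function (mgcv 1.9.3) of log2 length and GC content per library, for 15216 genes, using the longest transcript (planned) or the APPRIS principal transcript (added after seeing the data, since the longest model of Sod1, 3970 bp, is a retained-intron transcript; 13762 genes have one). Other alternatives were median-ratio, upper-quartile and library-size scaling, DESeq2 1.42.0, no filter, a filter at 1 CPM, a replicate block, 2 groups alone and leaving out each library.

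Counts had decimals in 21 of the 44 genes, and exons of 8 lie over a gene on the other strand, so these values can hold reads of other genes. Members and lists were chosen with earlier results of these data known. Values per library were given for NRF2, KEAP1 and up to 3 called genes per role with the smallest p, and for called genes that went against their role; pathway lists name up to 3 called genes. The reported edgeR fit of cKO against controls was tested on simulated counts without a length or GC trend. The offset, the other comparisons and the other alternatives were not. Replicates differed by more than sampling noise.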

Additional observations from a re-analysis of the deposited data

Results flagged for a closer look

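Txnrd2 in cKO replicate 4, at 36.3 CPM, stood apart from the other 3 cKO hearts, the nearest of which was at 33.2 CPM. The gap was 0.886 of the range of the group. This was the 1 case among the 44 genes, and chance alone marks about 1 in 20 groups.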

How the results depend on the processing

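Under median-ratio scaling, upper-quartile scaling, DESeq2 and the filter at 1 CPM all 25 calls against controls remained, and under no alternative was one of these genes called in the opposite direction. The median of all genes was 0.1552 with upper-quartile scaling, 0.1684 with library size alone and 0.1062 with no filter, beside 0.0438 in the reported fit. With the principal transcript offset the genes higher than controls numbered 12, those higher than floxed 11 and those higher than Cre 9, and the longest transcript offset also gave 9 higher than Cre. With library size alone 3 were lower than Cre. Leaving out 1 library gave 16 to 23 higher and 5 to 7 lower than controls, 9 to 22 higher and 4 to 6 lower than floxed, and 10 to 18 higher and 3 to 6 lower than Cre.

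Changes of sign concerned genes that were not called under that alternative, given here as log2 fold changes against controls. With the longest and the principal transcript offset they were 0.0738 and 0.0937 for Glrx2, 0.2284 and 0.2654 for Gclm, -0.1245 and -0.0619 for Gstm1, -0.1567 and -0.0886 for Gstm2, -0.0607 and -0.1518 for Gstk1, and -0.1428 and -0.0910 for Msrb1. With the longest transcript offset alone they were -0.0478 for Txn2, 0.0167 for Glrx, 0.0572 for Glrx3 and 0.0861 for Gss, and with the principal alone 0.0600 for Gclc, 0.0607 for Nfe2l2 and -0.0850 for Msra. Upper-quartile scaling and library size alone gave 0.0640 and 0.0762 for Gss, 0.0427 and 0.0560 for Nfe2l2, 0.0965 and 0.1140 for Hmox2 and 0.1085 and 0.1288 for Nqo1, and library size alone 0.0070 for Glrx3. Nqo1, close to 0 in the reported fit, was at 6e-04 with median-ratio scaling, 0.0024 with DESeq2 and 0.0210 with the filter at 1 CPM, where Hmox2 was at 0.0086. Over the fits without 1 library, Nqo1 ranged from -0.2024 to 0.2224, Hmox2 from -0.1061 to 0.0660, Msra from -0.0198 to 0.0961 and Prdx6 from -0.0169 to 0.1210. Against floxed, the offsets gave -0.0981 and -0.0356 for Gstt1, and the longest -0.0178 for Msrb1. Against Cre they gave -0.2677 and -0.2206 for Msrb1 and -0.0027 and -2e-04 for Selenow. The cause was not tested.

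Sample titles and library names number the floxed hearts differently (floxed replicates 1 and 2 are 2 and 3 in the library names). Correlations of deviations between same-numbered hearts ran from -0.108 to 0.133 by titles and from -0.108 to 0.139 by library names, the latter checked after seeing the data. In a group of 2 the deviations mirror each other, so the second check partly repeats the first with the sign turned. For example, cKO replicate 2 was at -0.105 with floxed replicate 2 and 0.105 with floxed replicate 1. The numbers were not taken as pairs, which these few correlations cannot decide. With the replicate block, by titles, 18 genes were higher and 6 lower than controls. Replicates 3 and 4 exist only in cKO, so their block terms take up those libraries. That fit therefore sets cKO replicates 1 and 2 alone against the controls and is no adjustment of all 8 libraries. Of the 25 calls 20 remained: Hmox1, Txn1, Gsr, Txnrd2, Msrb1 were not called and Glrx, Srxn1, Gstm2, Gstm1 were. Nqo1 was then at 0.2567 and Msra at -0.0502. Each control group had 2 libraries, and genes of few counts, such as Gsta1 and Hmox1, had some of the larger standard errors.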

Other observations

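Transferases and NRF2 targets were often lowest in cKO replicate 4 among the cKO hearts, a pattern noticed after the values were seen and not tested. That heart held the lowest cKO value for 14 of the 44 genes, beside 16, 12 and 2 in cKO replicates 1 to 3, so that over all 44 it did not stand out. Its count was 5 of the 7 glutathione transferases and 7 of the 13 NRF2 targets, where replicates 1 to 3 counted 1, 0 and 1 transferases and 2, 4 and 0 targets. These lists share genes, Gsta1 and Gstm1 among them, so the counts are not separate. Besides Gsta1 and Gsta4, the genes lowest there include Nqo1 (16.95 CPM, the other cKO hearts at 34.04 to 45.8 CPM) and Srxn1 (16.5 CPM, the others at 21.2 to 22.3 CPM). Without that heart Nqo1 was at log2 0.22 (edgeR adjusted p = 0.149). Sod3 (69.1 CPM), Gpx7 (19.5 CPM) and Gpx1 (131.5 CPM) were by contrast highest there. The same heart had the lowest cardiomyocyte marker sum of the cKO hearts (67190 CPM, the others 73280 to 76120) and the highest endothelial (3294 CPM), fibroblast (3399 CPM), smooth muscle (2372 CPM) and erythroid (1356 CPM) sums. The part of these markers in the pattern was not tested.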
